A study of Mus musculus with 4 samples.

Results

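The response of wild-type (p53+/+) mouse embryonic fibroblasts (MEFs) to doxorubicin was described from 2 of the 4 arrays of the study, 1 of WT MEFs with doxorubicin and 1 of WT MEFs without any agent. These are the arrays whose labels give the wild-type genotype, and every gene and family on them was considered. Of 39429 probes other than controls, 25711 (65.2%) were called well above background on at least 1 of the 2 arrays. Both cultures were p53+/+, and doxorubicin was the only agent named for them. The other 2 arrays held p53-/- MEFs without and with doxorubicin and are given beside the WT values for comparison. MEFs are primary cells of the embryo's connective tissue grown in culture. The strain, sex, passage and number of embryos behind each culture, and the dose and time of the doxorubicin given to the array samples, are not given in the sources used here. Each condition had 1 array, and all 4 arrays shared 1 slide. The difference between the arrays therefore has no replicate check, no p-value was calculated, and the effects of treatment, culture and place on the slide cannot be told apart. The study set up these arrays to look for genes that act on myosin and respond to p53. Here the whole response of the WT cells is described.

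Doxorubicin is an anthracycline that slides between DNA bases and traps type II topoisomerases on cut DNA, so that double-strand breaks remain. Kinases that sense these breaks stabilise p53, a transcription factor that switches on genes of growth arrest, repair and cell death, among them Cdkn1a and Mdm2. Through the CDK inhibitor encoded by Cdkn1a, the pocket proteins then keep E2F and MYB-FOXM1 target genes off, and these include most genes of DNA replication and mitosis.

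Signals are background-subtracted spot intensities in arbitrary units. For ratios, each array was divided by its own 75th percentile, a signal of 2074 without and 1819 with doxorubicin, so a ratio differs slightly from the quotient of the printed signals. Where several probes named a gene, the one brightest on average across all 4 arrays stood for it, and the gene counted as measured if this probe passed the background call on both WT arrays. The brightest member of a list is the one with the highest mean signal on these 2 arrays, which orders probes and not transcript levels. "Rose" and "fell" stand for a difference of at least 2-fold (log2 ratio of 1 or more, or −1 or less) between these 2 arrays. More probes were above background with doxorubicin (62.9%) than without (57.5%), and the 153 negative control spots read up to 77.5 with and 108 without doxorubicin.

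Of 17505 measured genes, 1930 rose (11.0%) and 1826 fell (10.4%), and 13749 (78.5%) stayed within 2-fold. The rises reached further than the falls. At least 4-fold rises were seen for 541 genes and falls for 417, at least 8-fold rises for 188 and falls for 101, and at least 16-fold rises for 72 and falls for 17. At 32-fold or more, 27 genes rose and 1 fell. The log2 ratios of 90% of the genes lay between −1.46 and 1.60, with quartiles of −0.45 and 0.46 and a median of 0.01. Scaling each array to its median instead shifted the median to −0.27 and gave 1319 rises and 2790 falls, so that 32.1% of the changed genes were rises in place of 51.4%. This scaling lowered every ratio by 0.28 on the log2 scale, so rises with a log2 ratio under 1.28 came within 2-fold. The balance of rises and falls therefore rests on the scaling, and the lists below are read against the median of all genes.

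**Figure D1:**
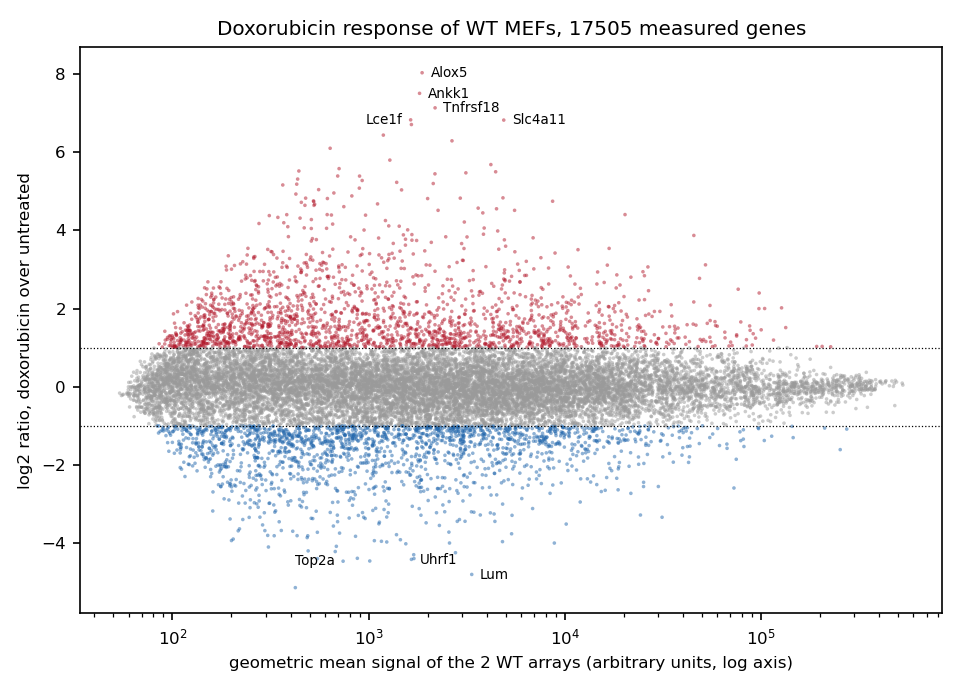
Log2 ratio of doxorubicin-treated over untreated WT MEFs (vertical axis) against the geometric mean of the 2 signals (horizontal log axis, arbitrary units) for the 17505 measured genes, with rises of at least 2-fold in red, falls in blue and dotted lines at log2 ratios of 1 and −1. The rises reach a log2 ratio of 8.03 (Alox5), and large changes in both directions are sparse among the brightest genes.

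The changes were spread over the range of signals but were fewest among bright genes. The measured genes were divided by mean signal into 5 groups of 3501. In the dimmest, with mean signals of 53.8 to 289.6, 12.7% rose and 10.4% fell. In the next group the shares were 15.2% and 14.5%, the highest of the 5 groups. In the brightest, with mean signals of 10902 and more, 6.31% rose and 5.28% fell. Repeat spots of a probe on an array had a median SD of 0.06 on the log2 scale (261 probes with 10 spots), which corresponds to 0.09 for a ratio of single spots. Different probes of a gene agreed less closely. For 3577 genes with at least 2 measured probes, the log2 ratios of the 2 brightest probes differed by a median of 0.20 (SD 0.51). Of 271 genes that rose and had a second measured probe, this probe also rose for 194 (71.6%) and fell for 1. Of 350 such genes that fell, the second probe also fell for 233 (66.6%) and rose for 1. This spread is that of spots and probes, not of separate cultures.

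Among genes with both signals above the brightest negative control of their array, the largest rise was that of Alox5, the enzyme that starts leukotriene synthesis. Its signal was 124 without and 28428 with doxorubicin, 262-fold higher. Ankk1, a kinase with ankyrin repeats, had signals of 144 without and 22983 with doxorubicin (182-fold). Tnfrsf18, a tumour necrosis factor receptor known from regulatory T cells, went from 197 to 24251 (141-fold). These 3 genes were close to background without doxorubicin and among the clearly bright genes with it. Slc4a11, a membrane transporter, rose from 491 to 48723 (113-fold). St14 encodes the membrane protease matriptase, and its signals were 173 without and 15839 with doxorubicin (105-fold). Lce1f, which encodes a late cornified envelope protein of the epidermis, had 164 without and 16363 with doxorubicin (114-fold), and Lce1h, of the same gene cluster, 115 without and 4223 with doxorubicin (42-fold). Lce1 genes are similar in sequence, and whether these probes tell them apart was not tested. The remaining members of the 15 largest rises were Hs3st6 (a heparan sulfate sulfotransferase), Cmtm5, H2-Eb1 (an MHC class II chain), Sncg (a synuclein), Ms4a10, Ces2e (a carboxylesterase), Sytl1 and Vnn1 (pantetheinase), with log2 ratios between 5.45 (Vnn1) and 6.44 (Hs3st6). H2-Eb1 had a signal of 184 without and 8969.9 with doxorubicin, and Ms4a10, whose untreated signal of 109 was just over the negative controls, reached 4582. Some of these log2 ratios were lower under other settings. The lowest were 7.33 in place of 8.03 for Alox5 and 6.77 in place of 7.51 for Ankk1. For Ms4a10 the lowest was 4.66 in place of 5.58, and for Lce1h 4.64 in place of 5.39. In p53-/- MEFs, log2 ratios could be measured for 9 of these 15 genes, among them 4.43 for Vnn1, 1.95 for Slc4a11 and 0.73 for Lce1h.

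Among the same genes, the largest fall was that of Lum, which encodes the matrix proteoglycan lumican. Its signal was 18970.2 without and 595 with doxorubicin, 28-fold lower. Top2a, the type II topoisomerase of dividing cells and a target of doxorubicin, had a signal of 3725 without and 148 with doxorubicin (22.1-fold lower). Uhrf1, which guides DNA methylation to newly copied DNA, fell from 8176 to 335 (21.4-fold), and Exo1, a repair exonuclease, from 2693 to 112 (21.1-fold). Tk1, the thymidine kinase of S phase, fell from 8057 to 358 (19.7-fold). Genes of cell division thus stood beside genes of the fibroblast matrix and of stress signalling. Aspn, which encodes asporin, a small proteoglycan related to lumican, fell from 11056 to 605 (16-fold). Trib3, a pseudokinase gene switched on by ATF4, fell from 37871 to 2072 (16-fold). The others of the 15 largest falls were Cygb (cytoglobin), Meox1 (a homeobox factor), Fignl1 (a recombination ATPase), Kif21b (a kinesin), Actc1 (cardiac actin), Ldb2, Igsf10 and H1f5 (a linker histone), with log2 ratios from −3.98 (H1f5) to −4.46 (Cygb). Without p53 the log2 ratio was −2.34 for Lum, −3.03 for Trib3 and −2.39 for Aspn, but 0.40 for Top2a, 1.07 for Exo1 and 0.70 for Tk1.

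**Figure D2:**
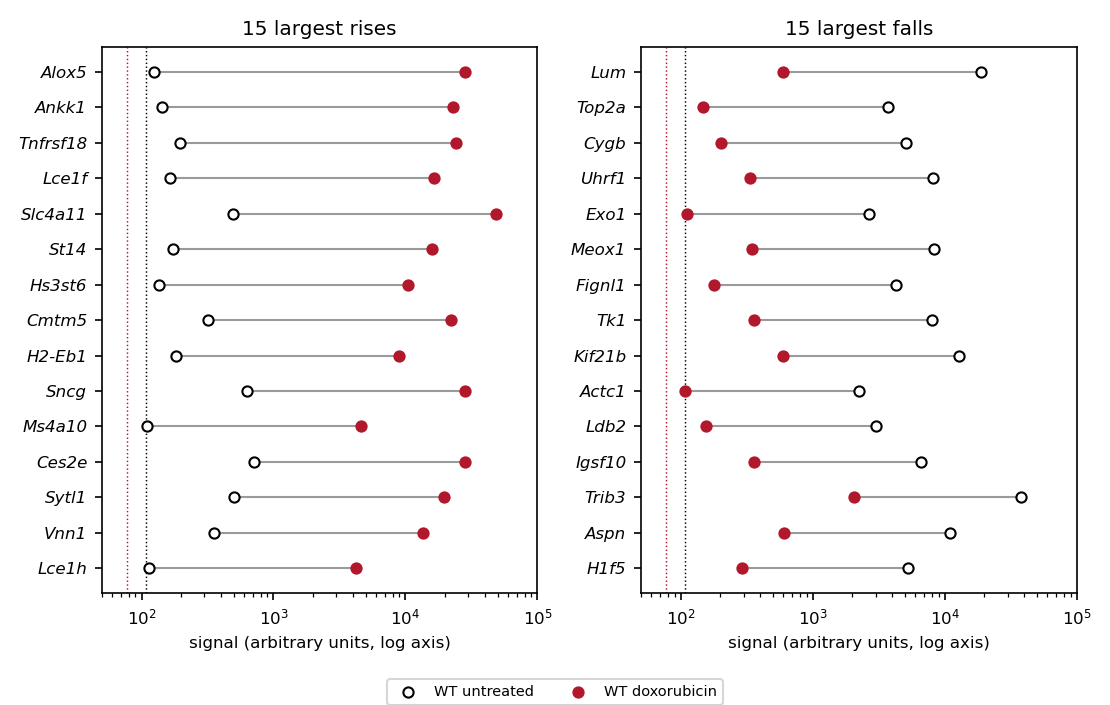
Signals (log axes, arbitrary units) of WT MEFs without (open circles) and with doxorubicin (red) for the 15 genes with the largest rises and the 15 with the largest falls among measured genes whose signals both exceeded the brightest negative control, drawn as dotted lines at 108 (untreated, black) and 77.5 (doxorubicin, red). Alox5 went from 124 to 28428, and Lum went from 18970.2 to 595.

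A further 2516 genes were above background only with doxorubicin and 690 only without it, and 10987 of the 31698 genes on the array were above background on neither WT array. For such genes the other signal is only a bound, here taken as the higher of the gene's own signal and the brightest negative control of that array. By this bound, 408 of the 2516 rose at least 2-fold and 173 of the 690 fell at least 2-fold. Cited4, which encodes a transcription cofactor, was at 33.8 without and 14277 with doxorubicin, at least 150.4-fold higher (at least 287-fold against the lowest signal called above background there). Ppp2r2c, a regulatory subunit of protein phosphatase 2A, went from 57.8 to 7542 (at least 79.4-fold). The next were Krtap1-5 (a hair keratin-associated protein), Ccdc153, Pm20d1, Asb16, Npas1 (a bHLH transcription factor) and Sct (secretin), at least 61.8-fold for Krtap1-5 and at least 37.6-fold for Sct. Among the genes seen only without doxorubicin, most of the largest bounds belonged to genes of cell division. Pimreg, a mitotic regulator, fell from 3984 to 42.3, at least 45.1-fold (78.8-fold against the lowest call), and Pbk, a mitotic kinase, from 1383 to 23.6, at least 15.7-fold. Ska1 and Nuf2, which link kinetochores to microtubules, fell at least 15.1-fold and 15-fold. Nek2 (a centrosome kinase), Kif11 (a spindle kinesin) and Gmnn (geminin, an inhibitor of replication licensing) were also among the 8 with the largest bounds. The remaining one, Cemip, acts in hyaluronan breakdown, and its signal was 998 without and 40.2 with doxorubicin.

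The labels call the cells embryonic fibroblasts, and all 13 fibroblast markers were measured in both WT cultures, with signals of 163163 without and 170854 with doxorubicin for Col1a1 and 172028 without and 152576 with doxorubicin for Vim. None of them rose and 5 fell, with a median log2 ratio of −0.76. The falls were Lum, Pdgfra (from 2728 to 233, log2 ratio −3.36), Pdgfrb (from 33756 to 5449.7, −2.44), Postn (−1.53) and Dcn (−1.30). Col1a2, the marker with the highest mean signal, was at 609265 without and 381815 with doxorubicin, and the summed signal of the 13 was 1897770 without and 1305660 with doxorubicin. Of the 13 in p53-/- MEFs, 0 rose, 2 fell and the median was −0.25, beside 9.25% of rises and 6.89% of falls among 16945 genes measured there. Fewer cells that use a gene and less of its RNA per cell cannot be told apart in these bulk samples.

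Markers of other cell types were measured in part. Of 10 epithelial markers, 3 of 6 measured rose with a median of 0.96: Krt19 (3705 without and 36899.7 with doxorubicin), Krt14 (322 without and 822 with doxorubicin) and Cldn3. Krt5 was at 53 without and 951 with doxorubicin and above background only with it, and the summed signal of the list, led by Krt19, went from 15807 to 56266. Krt18 had a log2 ratio of 0.91, Esrp1 of 0.23 and Krt8 of −0.46. The sign for Esrp1 turned under quantile normalization and scaling to the array median. Epcam was above background on neither array, at 15.4 without and 27.4 with doxorubicin, as was Cldn4, and Cdh1, at 25.2 without and 56.2 with doxorubicin, passed the background call only with it but stayed under the brightest negative control. Of 6 epithelial markers measured in p53-/- MEFs, 4 rose. Of 14 leukocyte markers, 1 of 12 measured rose. This was Cd14, the coreceptor for lipopolysaccharide, at 513 without and 6020.1 with doxorubicin. The pan-leukocyte gene Ptprc stayed at 65.3 without and 66.5 with doxorubicin, below the negative controls, and the summed signal, led by Itgam, was 42751 and 50054. Among 10 endothelial markers, 4 were measured and 1 rose, Vwf (68.9 without, below the brightest negative control, and 512 with doxorubicin). Cdh5 and Tie1 were above background on neither array and the sum, led by Kdr, was 11853 and 11012. Of 10 skeletal muscle markers, 4 were measured and 2 fell, with Myod1 and Myf5 on neither array and a sum, led by Acta1, of 16318 and 7858. Neural (7 of 10 measured, 0 rises, 1 fall, sum 92672 and 67670 led by Ncam1) and adipocyte markers (5 of 8 measured, 1 rise, 0 falls, sum 6661 and 4854 led by Lpl) lacked Sox2, Gfap and Olig2, and Adipoq, Plin1 and Cfd. The part of other cell types in the ratios given here was not tested. Of 5 sex-linked genes, the Y-linked Ddx3y, Eif2s3y and Kdm5d were measured, with log2 ratios of 0.02, −0.27 and −0.15. That of Ddx3y was below 0 under scaling to the array median or to reference genes. Xist was above background on neither array.

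Gene lists of pathways and complexes were then described by their counts and medians beside the 11.0% of rises, 10.4% of falls and median of 0.01 over all measured genes. They were chosen with earlier results of these data known. Of the 61 lists, the lowest median was that of mitotic kinases, kinesins and spindle genes (−2.99), followed by cholesterol and fatty acid synthesis (−2.09) and kinetochore genes (−2.05). The highest were those of interferon-stimulated effectors (1.29) and p53 negative feedback regulators (0.98).

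**Figure D3:**
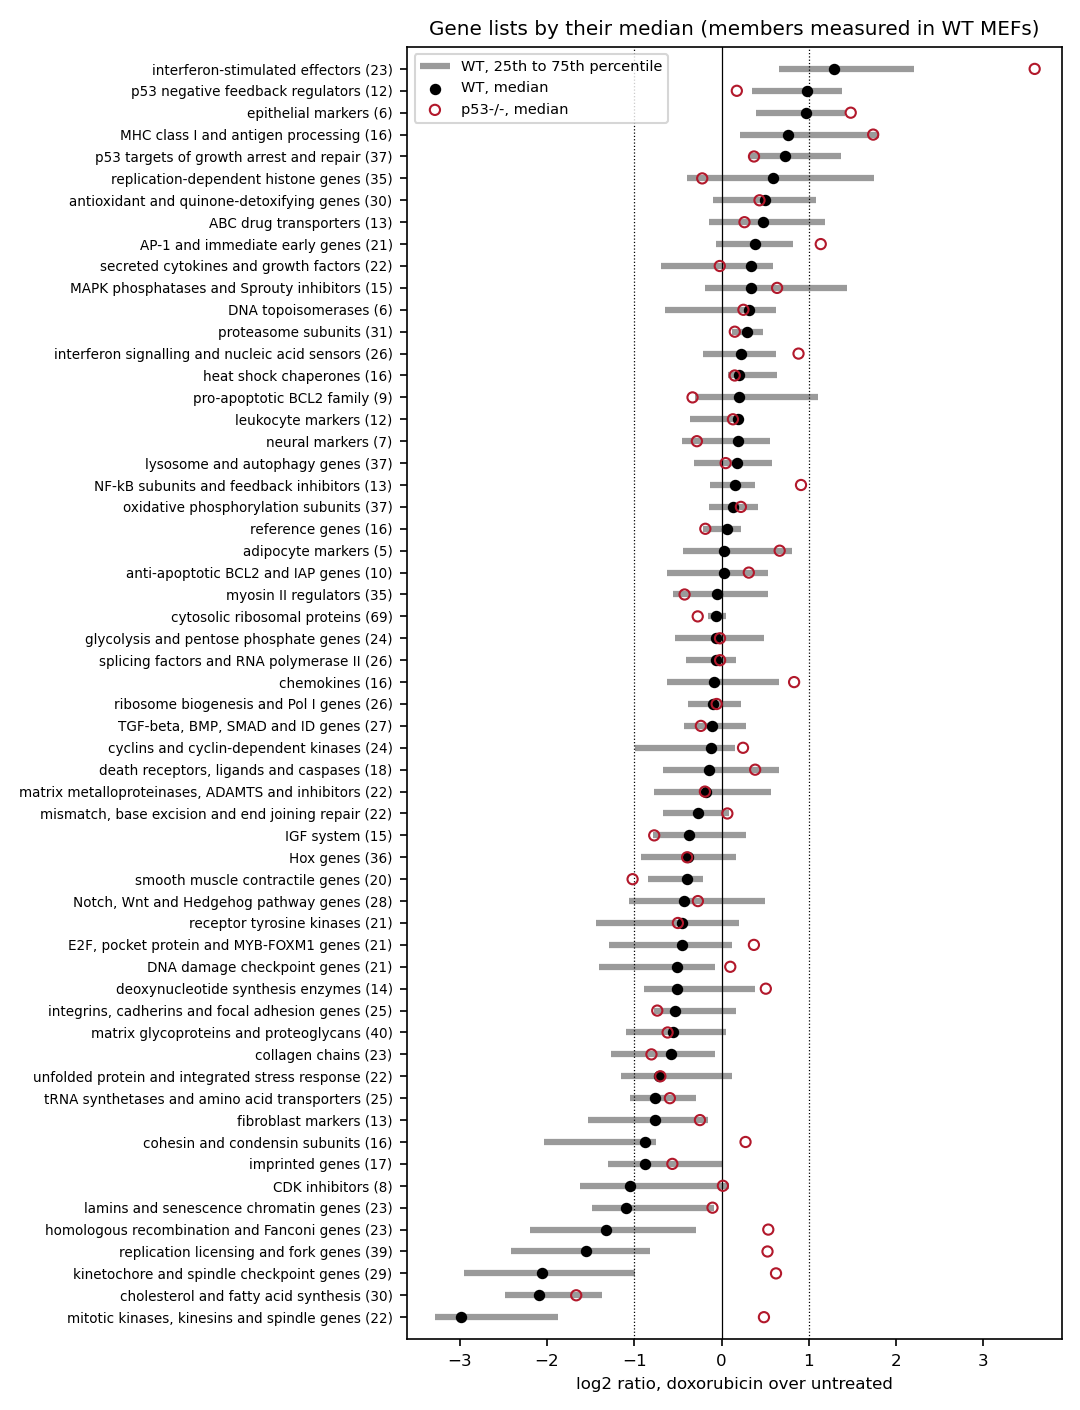
Median log2 ratio of doxorubicin-treated over untreated MEFs (horizontal axis) for each gene list with at least 5 measured members in WT MEFs (number in parentheses), with the WT median (black), the 25th to 75th percentile of its members (grey bar) and the median in p53-/- MEFs (red circle, where at least 5 members were measured). WT medians run from −2.99 for mitotic genes to 1.29 for interferon-stimulated effectors, and in p53-/- MEFs these lists had medians of 0.49 and 3.59.

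Trp53 and some of its feedback genes rose with doxorubicin. The Trp53 probe had a signal of 1228 without and 3442 with doxorubicin in WT MEFs (log2 ratio 1.68). The same probe read 442 without and 543 with in p53-/- MEFs, and its position relative to the targeted sequence was not analysed here. Of 12 measured feedback regulators on a list of 13, 5 rose and 0 fell. They were Pidd1 (from 1283 to 5952, 2.40), Wrap53, which is transcribed from the opposite strand next to Trp53 (from 5657 to 24337, 2.29), Mdm2, the ubiquitin ligase of p53 (from 52283 to 183079, 2.0, and 0.47 in p53-/- MEFs), and Ppm1d and Ccng1. Rps27l, a ribosomal protein homolog with the highest mean signal in the list, was at 102870.0 without and 180237 with doxorubicin, just under 2-fold. Cop1, another ligase, had a log2 ratio of −0.64 and Mdm4 of 0.01. The sign for Mdm4 turned under the scalings to the array median, to quantiles and to reference genes. It also turned under normexp background correction and when the probes of the gene were averaged. Trp73 and Trp63, the relatives of Trp53, stayed within 2-fold at 184 without and 221 with doxorubicin and 3639 without and 5077 with doxorubicin.

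Of 37 measured p53 targets of growth arrest and repair (40 on the array), 15 rose and 2 fell, with a median of 0.73. Dcxr, a reductase of sugars and carbonyls, rose from 2574 to 22229.8 (3.30), Dgka, a diacylglycerol kinase, from 2615 to 18529 (3.01), and Ddit4l, an mTOR brake, from 1303 to 8946 (2.97). The falls were those of Ddb2, a nucleotide excision repair gene (from 402 to 153, −1.20), and Sesn3 (from 1308 to 554, −1.05), both within 2-fold under normexp background correction. Gadd45a, often used as a damage-response gene, was at 5803 without and 2853 with doxorubicin (−0.83). Gadd45g was at 79918 without and 100417 with doxorubicin. Members of this list ran from −1.20 to 3.30. In the cells without p53, 5 of 35 measured members rose and 4 fell, with a median of 0.37. Among 8 CDK inhibitors, Cdkn1a, which encodes p21, rose from 28619 to 105995 (2.08) and 4 fell. Cdkn1a also rose in p53-/- MEFs, from 977 to 5912 (2.23). The falls in WT MEFs were those of Cdkn3 (−3.69, a phosphatase of dividing cells), Cdkn2d (−1.75), Cdkn1b (−1.58), an inhibitor of G1 kinases, and Cdkn2c. Cdkn3 fell to a signal of 77.3, just below the brightest negative control. Cdkn2a and Cdkn2b, often used as genes of senescence, had log2 ratios of 0.02 and 0.27, whose signs turned under scaling to the array median. That of Cdkn2a also turned under quantile normalization and scaling to reference genes.

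Genes of cell death changed in both directions, beside 11.0% of rises and 10.4% of falls among all measured genes. The anti-apoptotic list (10% rises and 10% falls) was near these shares. So were the falls among death receptors, ligands and caspases (11.1%). Of 9 measured pro-apoptotic BCL2 family genes, 3 rose and 2 fell. Pmaip1, which encodes NOXA, rose from 8302 to 44188 (2.60), Bcl2l11, which encodes BIM, from a dim 105 to 264 (1.52), and Bax from 26352 to 49695 (1.10, within 2-fold under scaling to the array median). Bbc3, which encodes PUMA, was at 15633 without and 15736 with doxorubicin, and its ratio of 0.20 changed sign under scaling to the array median. Bmf (from 661 to 119) and Bok (from 5335 to 1382) fell. Of 10 measured anti-apoptotic genes, Cflar rose (1.18) and Birc5, which encodes survivin and also acts in mitosis, fell from 21607 to 2179.8 (−3.12). Of 18 measured death receptor, ligand and caspase genes, 4 rose and 2 fell. Fas rose from 2316 to 10705 (2.40) and Mlkl, the effector of necroptosis, from 319.7 to 1343 (2.26), with Tnfrsf10b (1.04) just past 2-fold. Several of these rises were also seen in p53-/- MEFs, where the log2 ratio was 1.68 for Pmaip1, 1.86 for Fas and 2.03 for Mlkl, but −0.33 for Bax and −0.05 for Tnfrsf10b. There 5 of 18 measured death receptor, ligand and caspase genes rose and 0 fell, and 2 of 9 pro-apoptotic BCL2 family genes rose and 1 fell.

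Most genes of mitosis fell in WT MEFs. On the list of mitotic kinases, kinesins and spindle genes, 20 of 22 measured members fell and 2 rose, with a median of −2.99. Of the other 10 on the array, 7 were above background only without doxorubicin, 1 only with it and 2 on neither array. Kif22, a chromosome-arm kinesin, fell from 10944 to 880.5 (−3.45), and Kif20b from 3304 to 279 (−3.37). Kif2c fell as far (−3.39), to a signal of 57 below the negative controls. The 2 members that rose were Ckap2 (from 2154 to 4473, 1.24) and Kif18b (from 386 to 715, 1.08), both within 2-fold under scaling to the array median. Tacc3 fell from 14844 to 3954 (−1.72). Of this list 30 members were measured in p53-/- MEFs, of which 4 rose and 0 fell, with a median of 0.49, and the summed signal of the list went from 238073 to 441499, against 133257 to 24780 in WT MEFs.

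On the kinetochore and spindle checkpoint list, 21 of 29 measured members fell and 1 rose (median −2.05). Spc24, an outer kinetochore subunit, fell from 1223 to 76.6 (−3.81), a signal just below the brightest negative control. Sgo1, a protector of sister chromatids, fell from 4037 to 319.7 (−3.47), and Ube2c, the ubiquitin-conjugating enzyme of the anaphase-promoting complex, from 10088 to 838 (−3.40). Cenpt, a centromere protein gene, was the one that rose (from 2931 to 10068). Cdc20, which activates the anaphase-promoting complex, fell from 20787 to 8016 (−1.19). Of 16 measured cohesin and condensin subunits, 6 fell and none rose. All 6 belonged to condensin, with Ncapg2 (from 1964 to 122, −3.82), Smc2 (−2.63) and Ncapd2 (−2.51) the lowest. Cohesin subunits and their regulators stayed within 2-fold, such as Smc1a (from 26708 to 13040.1, −0.84) and Nipbl (−0.54). This contrast rests in part on the scaling. Scaling to the array median, which lowered every ratio by 0.28, took several cohesin genes past 2-fold, Smc1a included, but not Nipbl. The 2 lists had medians of 0.62 and 0.28 in p53-/- MEFs.

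DNA replication genes also fell widely. Of 39 measured licensing and fork genes, 27 fell and 0 rose (median −1.55), and 4 others were above background only without doxorubicin. Mcm10 fell from 2433 to 180.0 (−3.57). Mcm5 (from 7024 to 550.0, −3.49) and Mcm3 (from 15555 to 1249, −3.45) belong to the MCM helicase that unwinds DNA at the fork. Mcm6 fell from 39151 to 6847 (−2.33). The exception within the helicase was Mcm7, at 17539.6 without and 20033 with doxorubicin (0.38), and origin recognition subunits such as Orc4 (0.32) and Orc1 (−0.07) also stayed within 2-fold. The ratios of Orc1 and Mcm7 kept their signs under the scalings tried. Without p53, 9 of 43 measured members rose, 2 fell and the median was 0.53. Of 14 measured enzymes of deoxynucleotide synthesis, 3 fell and none rose, with Tk1 far below Dut (−1.15) and Dtymk (−1.0, within 2-fold under quantile normalization). Rrm2, a ribonucleotide reductase subunit, was at 21965 without and 15045 with doxorubicin (−0.36).

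**Figure D4:**
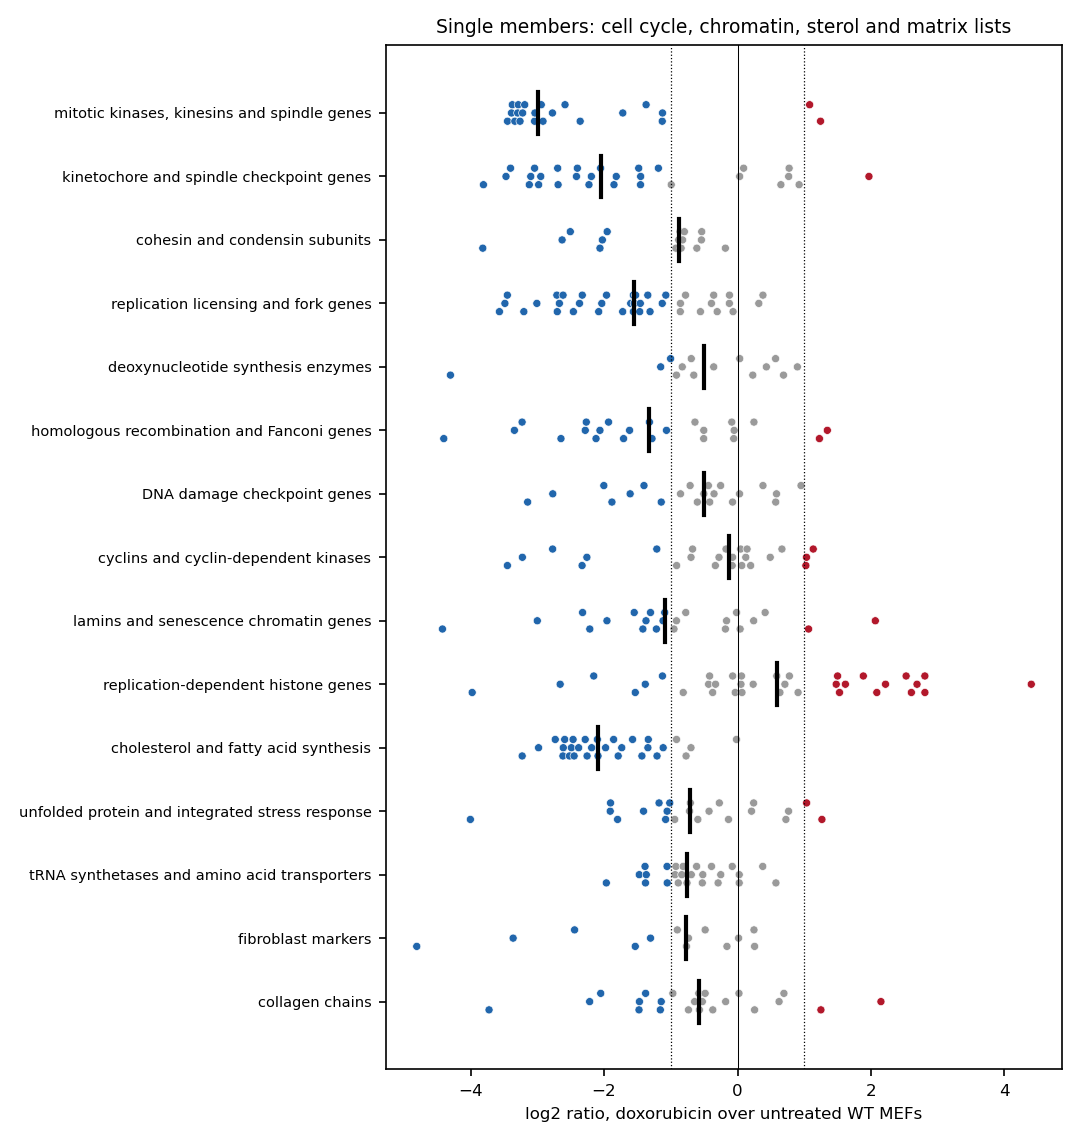
Log2 ratios of doxorubicin-treated over untreated WT MEFs (horizontal axis) for the measured members of 15 gene lists, 1 point per gene, with rises of at least 2-fold in red, falls in blue and the list median as a black bar. Mitotic, kinetochore and replication genes lie mostly below −1, histone genes spread from −3.98 to 4.40, and no member of the sterol list lies above 0.

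The promoter windows of these genes were read to show letters that cell cycle promoters are known for. The CHR, a short element bound by the DREAM and MYB-FOXM1 complexes, was searched as TTTGAA or TTCGAA, the CCAAT box, bound by NF-Y, as CCAAT, and the E2F site as TTTCGCGC or TTTGGCGC, on both strands of the RefSeq windows (GRCm38.p6, 250 bases before to 50 bases after each start). No motif's letters lie inside another's. A CHR was found for 21 of 28 mitotic genes with an entry (75%) and 16 of 30 kinetochore genes (53.3%), beside 21.7% of all 27025 genes with an entry. E2F sites were found for 10 of 35 replication genes (28.6%), beside 0.929% of all genes. CCAAT boxes were found for 17 of 28 mitotic genes (60.7%), 22 of 30 kinetochore genes (73.3%) and 22 of 35 replication genes (62.9%), beside 41.1% of all. Of the 10815 measured genes with an entry, 16.6% held a CHR, 1.71% an E2F site and 42.5% a CCAAT box. CCAAT boxes were also found for 20 of 34 p53 targets of growth arrest and repair (58.8%). For the S-phase histone genes they were found for 28 of 34 (82.4%), and the CHR for 16 of 34 (47.1%). In both of these lists more genes rose than fell. Of the cholesterol and fatty acid synthesis genes, 70% had an entry, and 18 of these 21 held a CCAAT box (85.7%). Among proteasome subunits 10 of 25 did (40%). A match is a description of the letters and not a binding site. The E2F windows of Mcm5 and Mcm6 also hold an overlapping match on the other strand, whose other letters are left in lower case. The windows of 30 bases below come from genes with large falls in these lists and are written in the direction of the gene, with the motif or its reverse complement in capitals, first the CHR of Kif22, Ube2c and Prc1, then the CCAAT box of Plk1 and Racgap1, then the E2F site of Mcm5, Mcm6 and Pola1.
Kif22, chr7:127042618-127042647, minus strand: ccaacctggcaaTTCAAAagcctgaaagtg
Ube2c, chr2:164769888-164769917, plus strand: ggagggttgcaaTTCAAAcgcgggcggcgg
Prc1, chr7:80294434-80294463, plus strand: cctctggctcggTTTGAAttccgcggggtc
Plk1, chr7:122159405-122159434, plus strand: ttttaaatccccgcggCCAATcagcaacgc
Racgap1, chr15:99651657-99651686, minus strand: attatgagctcctctgtgATTGGctggtgc
Mcm5, chr8:75109345-75109374, plus strand: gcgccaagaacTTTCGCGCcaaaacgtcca
Mcm6, chr1:128359797-128359826, minus strand: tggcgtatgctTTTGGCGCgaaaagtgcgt
Pola1, chrX:93632275-93632304, minus strand: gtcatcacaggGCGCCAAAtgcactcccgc

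The genes shown went far down. Prc1, which bundles spindle microtubules, fell from 14425 to 1322 (−3.26), Plk1, a master kinase of mitosis, from 18022 to 1612 (−3.29), and Racgap1, which acts in cytokinesis, from 4201 to 365 (−3.34). Pola1, the catalytic subunit of DNA polymerase alpha, fell from 2101 to 283 (−2.70). For each motif the genes with the largest falls were taken whose signals both exceeded the negative controls and whose match lay before the start. The CHR windows were taken from the mitotic and kinetochore lists, the CCAAT windows from the mitotic list only and the E2F windows from the replication list. Promoters on chromosome 18 were not considered for any printed window. Kif22, which had the largest fall among the mitotic genes so taken for a CCAAT box, is shown for its CHR only. Of all measured genes, 61.8% had a promoter entry, so shares over all genes that rose or fell were not compared. The paired p53 half-site pattern was found in 1 of 34 p53 targets with an entry and in 0.0740% of all genes.

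Many recombination genes and some checkpoint genes also fell. Of 23 measured genes of homologous recombination and the Fanconi pathway, 14 fell and 2 rose (median −1.32). Exo1 was the lowest, followed by Rad51ap1, a gene of strand exchange (from 3212 to 278, −3.34), and Brca2 (from 961 to 90.0, −3.23). Fancd2, Palb2 and Brip1 were above background only without doxorubicin, at signals of 87.3, 144 and 129.5. Xrcc3 (from 587 to 1308, 1.35) and Mus81, a nuclease subunit (from 1039.9 to 2136, 1.23), were the 2 that rose. Of 21 measured damage checkpoint genes, 7 fell and 0 rose. Timeless, a fork protection gene, fell from 3809 to 378 (−3.14), and the CDK-activating phosphatases Cdc25b (from 2385 to 307, −2.77) and Cdc25c (−2.0) fell too, as did H2ax (from 22376 to 8886, −1.14), the histone marked at breaks. The highest members of the list stayed within 2-fold, with log2 ratios of 0.95 for the clamp subunit gene Rad9a, 0.58 for the checkpoint kinase gene Chek2 and 0.57 for the break sensor gene Rad50. Among 22 measured genes of mismatch, base excision and end joining repair, Msh6 (1.70) and Xrcc1 (1.03) rose, and 5 fell, with Lig1, the ligase of replication, the lowest (from 9486 to 2124, −1.97), then Parp1 (from 2039 to 601, −1.57). Of the 6 topoisomerases only Top2a passed 2-fold, while Top2b, the form of resting cells, was at 20786 without and 9756 with doxorubicin (−0.90) and Top1 at 7558 without and 7097 with doxorubicin (0.10), a ratio that turned sign under scaling to the array median.

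Of 24 measured cyclins and cyclin-dependent kinases, 6 fell and 3 rose. The mitotic genes Ccnb2 (from 9993 to 803, −3.45) and Cdk1 (from 3039.9 to 285, −3.22) and the G1/S gene Ccne1 (from 12557 to 1614, −2.77) were lowest. Ccng1, Ccnt1 and Ccnd1, the cyclin that answers to growth factors, rose just past 2-fold (1.13, 1.03 and 1.02). Cdk4, the partner of D cyclins with the highest mean signal, was at 79737 without and 43149 with doxorubicin (−0.70). Of 21 measured E2F, pocket protein and MYB-FOXM1 genes, 7 fell and 3 rose. E2f2 (from 1079 to 105, −3.18), E2f8 (from 1955 to 219.8, −2.96) and Foxm1 (from 1613 to 310.1, −2.19) fell. The repressive pocket proteins Rb1 (from 1295 to 4503, 1.99) and Rbl2 (from 450.3 to 1036, 1.39) rose, together with Mybl1 (1.62), while Rbl1, the other pocket protein, fell from 1112 to 426 (−1.20). The medians of these lists in p53-/- MEFs were 0.25 and 0.37.

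Histone genes that are normally expressed in S phase changed in both directions. Of 35 measured members of a list with 39 on the array, 13 rose and 6 fell. The median of 0.59 went down to 0.15 when both signals had to exceed the negative controls, and the summed signal of the list fell from 805321 to 618392. H2bc8 rose from 138 to 849 (2.81) and H2bu2 from 170.3 to 1045 (2.81), and H2ac6 rose from a dim 88.9 to 1648 (4.40). The linker histones H1f5 (−3.98) and H1f4 (from 3794 to 748, −2.15) and the gene H2bc18 (from 635 to 88.2, −2.66) fell, as did the bright genes H2ac11 (from 149017 to 45189.9, −1.53) and H2ac22 (from 136254 to 45845, −1.38). The brightest, H2ac20, was at 162048 without and 109775 with doxorubicin (−0.37). The median in p53-/- MEFs was −0.22. The RNA was labelled from oligo-dT primers, so these signals report transcripts with a poly(A) tail, which most S-phase histone transcripts lack. Probes of near-identical histone genes may share targets, and the part of either in the result was not tested. Of 23 lamin and senescence chromatin genes, 12 fell and 2 rose (median −1.09). Hells, a chromatin remodeller, fell from 813 to 89.1 (−3.0), Lbr, the lamin B receptor, from 4227 to 742 (−2.32), and Uhrf1 was the lowest. Cbx1 rose from 226 to 830.0 (2.07), while Hmga1, the brightest, was at 96146 without and 112340.0 with doxorubicin (0.41).

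Genes of cholesterol and fatty acid synthesis fell widely in WT MEFs. All 30 members were measured, 26 fell and 0 rose, with a median of −2.09. Fads1, a fatty acid desaturase, fell from 7254 to 679.6 (−3.23), Insig1, the sterol sensor that holds SREBP in the endoplasmic reticulum, from 940.1 to 104 (−2.98), and Fdps, an enzyme of the mevalonate pathway, from 59854 to 7906 (−2.73). Scd2, with the highest mean signal, fell from 138531 to 47903 (−1.34). The 4 members within 2-fold included Ebp, Hsd17b7 (−0.70) and Srebf1 (−0.02). The summed signal of the list went from 592425 to 149636. These genes were also low with doxorubicin in p53-/- MEFs, where 25 of 30 fell, 0 rose and the median was −1.66.

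Genes of the integrated stress response were lower as well. Of 22 genes of this response and of the unfolded protein response, 9 fell and 2 rose (median −0.71). Trib3, Chac1, a glutathione-degrading enzyme (from 25831 to 6039, −1.91), and Herpud1, of endoplasmic reticulum degradation (from 16195 to 3799, −1.90), were lowest. Their regulator Atf4, the brightest of the list, fell from 219127 to 95074 (−1.02). Dnajb9 (1.27) and Ppp1r15a, which restores translation after stress (from 14864 to 26717, 1.04), rose. Of 25 tRNA synthetase and amino acid transporter genes, 7 fell and 0 rose (median −0.76), with Lars (from 35451 to 7959, −1.97), Eprs (−1.47) and Yars (−1.39) the lowest. Gars, the brightest, fell from 179441 to 60505 (−1.38). Without p53, 10 of 22 and 5 of 25 members of these lists fell, with medians of −0.70 and −0.59.

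Interferon-stimulated effectors had the highest median of the lists. Of 23 measured members, 13 rose and 0 fell (median 1.29), and 6 others were above background only with doxorubicin. Usp18, which removes ISG15 from proteins, rose from 148 to 5455 (5.39), Xaf1 from 355 to 2426 (2.96) and Isg15, the ubiquitin-like modifier itself, from 3560.3 to 19298 (2.63). Ifitm3, a membrane protein that blocks virus entry and the brightest member, rose from 50754 to 111752 (1.33). The lowest were Oasl1 (−0.55) and Ifit2 (−0.51), and Oas1g was above background only without doxorubicin. In p53-/- MEFs 22 of 26 measured members rose (median 3.59). Of 26 measured interferon signalling and sensor genes, 3 rose and 1 fell. Ifih1, which encodes the RNA sensor MDA5, rose from 541 to 1717 (1.86), and Cgas, the DNA sensor, fell from 1259 to 260.3 (−2.08). Irf7, the factor that amplifies interferon, was at 15.9 without and 319 with doxorubicin, above background only with doxorubicin, while Irf3, the brightest, was at 30085 without and 29518 with doxorubicin and Irf1 at −0.70. Of 16 MHC class I and antigen processing genes, 5 rose and 1 fell (median 0.76). These were the immunoproteasome gene Psmb9 (from 149 to 1800.1, 3.79), the peptide transporter gene Tap1 (from 159.9 to 1191, 3.09), Nlrc5, their activator, from a dim 65.2 to 2046 (5.16), and H2-D1 and H2-K1. H2-M3 fell (−1.52), and H2-Q4, the brightest, had a log2 ratio of 0.70.

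The interferon-stimulated response element (ISRE), searched on both strands as GAAA, 2 bases of any kind and GAAA again, occurs in the windows of 3.99% of all genes. Only 22 of the 32 effectors on the array (68.8%) had a promoter entry, too few to compare the list with that share, and 11 of these 22 held a match. The windows of the 3 effectors with the largest rises that have a match before the start are shown with the ISRE in capitals.
Isg15, chr4:156200877-156200906, minus strand: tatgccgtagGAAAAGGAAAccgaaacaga
Oas1a, chr5:120907526-120907555, minus strand: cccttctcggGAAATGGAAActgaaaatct
Bst2, chr8:71537583-71537612, minus strand: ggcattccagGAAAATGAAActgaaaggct

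**Figure D5:**
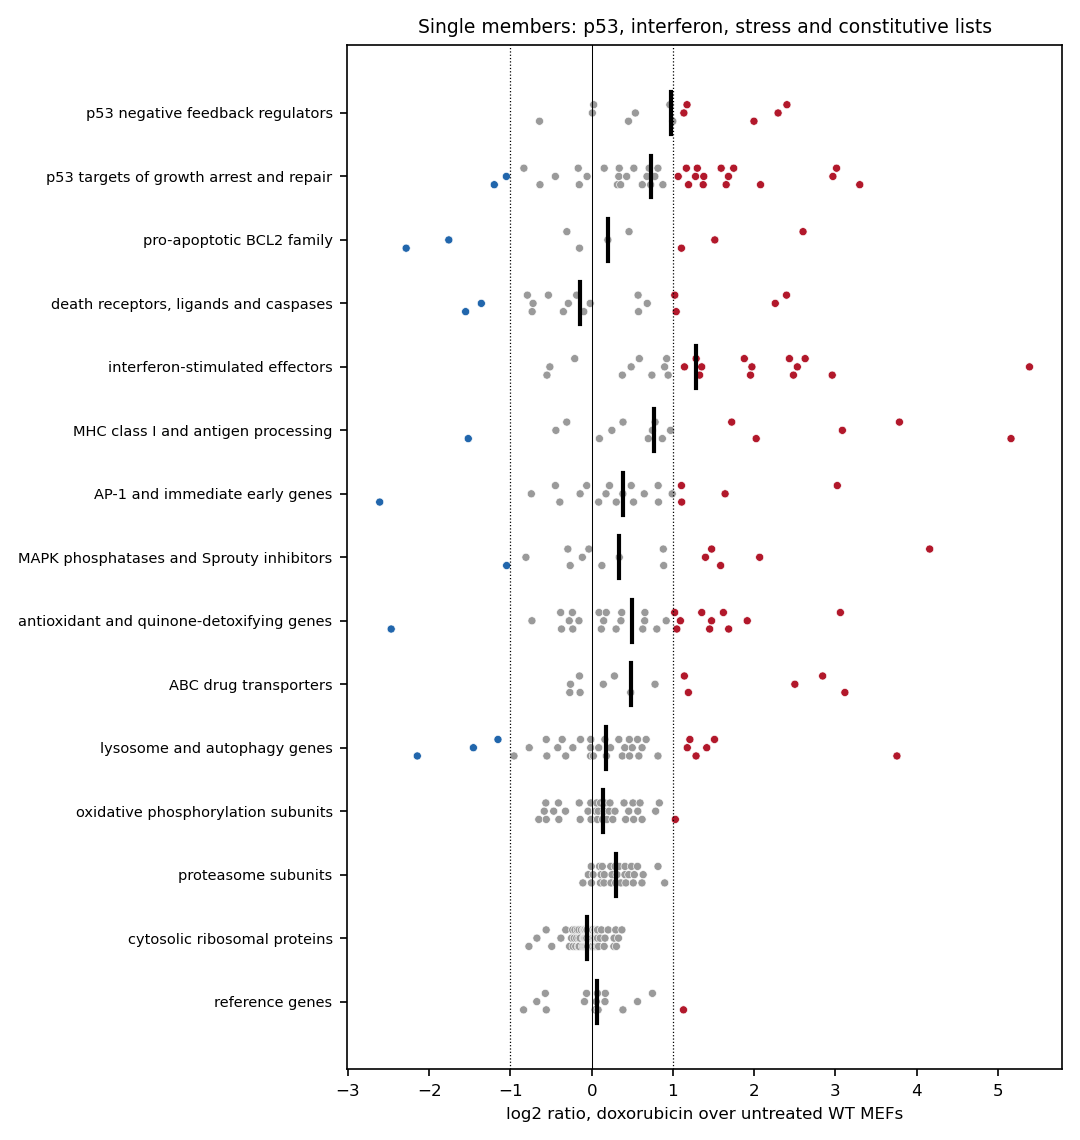
Log2 ratios of doxorubicin-treated over untreated WT MEFs (horizontal axis) for the measured members of 15 further lists, 1 point per gene, coloured red for rises and blue for falls of at least 2-fold, with the list median as a black bar. Interferon effectors reach 5.39 (Usp18), none of the 69 ribosomal protein genes passes 2-fold, and p53 targets range from −1.20 (Ddb2) to 3.30 (Dcxr).

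Secreted factors changed in both directions. Of 16 measured chemokines, 3 rose and 3 fell. Cxcl16 (from 337 to 960.0, 1.70), Ccl9 (1.53) and Cxcl1 (from 212 to 386, 1.06) rose. Cxcl12, the stromal chemokine that binds CXCR4, fell from 35655 to 4039 (−2.95), and Cxcl5 fell to a dim 49.4 (−3.90). Of 17 chemokines measured in p53-/- MEFs, 8 rose. Of 22 measured cytokines and growth factors, 5 rose and 4 fell. Pdgfa (1.38), Ereg (1.32) and Gdf15, a stress cytokine (from 3927 to 8378, 1.28), were highest, and the EGF receptor ligand Areg was at 59.5 without and 871 with doxorubicin, above background only with doxorubicin. Il33, an alarmin, fell from 949 to 82.2 (−3.34), and Fgf7 (from 5157 to 708, −2.67) and Hgf (from 542 to 81.5, −2.54), growth factors that fibroblasts supply to epithelia, fell too. Of 13 measured NF-kB genes, 2 rose and 1 fell: the feedback inhibitor Tnfaip3 rose from 612 to 3484 (2.70), Ikbkg reached 1.02, and Bcl3 fell (−1.98).

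The fibroblast matrix was lower in part. Of 40 measured matrix glycoproteins and proteoglycans, 13 fell and 6 rose (median −0.55). Beside Lum, Fbn2, a fibrillin, fell from 36786 to 2818 (−3.52) and Matn2 from 3824 to 702 (−2.26). Hyal1, a hyaluronidase, rose from 969 to 24215 (4.83), Matn4 from 990.5 to 20379 (4.55) and Mmrn2 from 485 to 5714 (3.75). Sparc, the brightest, stayed at 444551 without and 417731 with doxorubicin. Of 23 measured collagen chains, 8 fell and 2 rose (median −0.58). Col8a2 (from 9966 to 662, −3.72), Col14a1 (from 7573 to 1429.8, −2.22) and Col6a2 (from 14666 to 3106, −2.05) were lowest, and Col18a1, the basement membrane collagen that yields endostatin, rose from 7608 to 29596 (2.15). The chains of fibrillar type I collagen, Col1a1 and Col1a2, stayed within 2-fold. Of 22 measured matrix proteases and inhibitors, 5 rose and 5 fell, from Adamts4 (−2.16) to Mmp15, which rose from a dim 82.4 to 2202 (4.93). Of 15 IGF system genes, Irs2 rose (1.16) and 3 fell, with Igfbp5 at 21121 without and 1361 with doxorubicin (−3.77). Of 25 measured adhesion genes, 4 rose and 4 fell. Itgb7, another integrin subunit, was highest (4.18, and 3.17 at the lowest under other settings). Itga6 (from 10181 to 63912, 2.84) and Itga3 (1.92), which bind laminin, were also high. Itga11, a collagen receptor subunit (from 106720.0 to 9225, −3.34), and Cdh11, the mesenchymal cadherin (from 16672 to 2542, −2.52), were low.

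Contractile genes of the smooth muscle type were lower or little changed. Of 20 measured, 5 fell and 0 rose (median −0.40), with Myh11 (from 1206 to 195, −2.44) and Mylk, the kinase of the myosin light chain (from 1097 to 258, −1.90), the lowest and Acta2, the brightest, at 448569 without and 272691 with doxorubicin (−0.53). Of 35 measured regulators and subunits of myosin II, the class the study looked for, 5 rose and 5 fell (median −0.05). Ppp1r14a, an inhibitor of myosin phosphatase, rose from 2191 to 12496 (2.70). Myh14 followed (from 212 to 902, 2.28), with a log2 ratio of 0.92 when the probes of the gene were averaged. Cdc42bpg (2.24) and Dmpk, a kinase gene named for myotonic dystrophy (from 9576 to 37201, 2.15), came next. The Dmpk probe was matched through its description once its values were known. Ect2, which acts in cytokinesis (−3.04), and Myh10 (from 11934 to 1900.1, −2.46) were lowest.

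Among signalling and identity genes, falls outnumbered rises for receptor tyrosine kinases, Hox genes and imprinted genes, and rises outnumbered falls for immediate early genes and MAPK phosphatases. Of 27 genes of the TGF-beta and BMP pathways, 4 rose and 2 fell, with the BMP antagonist Nog (from 128 to 590.1, 2.39) and Bmp2 (from 244 to 1101, 2.36) high and the antagonist Grem1 low (from 5607 to 1233, −1.99). Of 21 measured immediate early genes, 4 rose and 1 fell: Fosl1, an AP-1 subunit, rose from 569.7 to 4062 (3.02) and Klf2 fell (−2.61). Of 15 MAPK phosphatase and Sprouty genes, 5 rose and 1 fell, among them Dusp2 (from 166 to 2598, 4.16) and Dusp4 (2.07). Of 21 measured receptor tyrosine kinases, 8 fell and 3 rose, the lowest being Pdgfra and Pdgfrb, and Ddr2, a collagen receptor (from 27541 to 7393, −1.71), and the highest Epha2 (from 5368 to 26949.5, 2.52). Of 28 measured Notch, Wnt and Hedgehog genes, 8 fell and 5 rose, with Axin2 (2.71), Wnt9a (2.14) and Lef1 (2.05) high. The Notch ligand Jag2 was at 52.9 without and 2186 with doxorubicin, above background only with doxorubicin, and Heyl fell to a dim 66.6 from 2688 (−5.14). Of 36 measured Hox genes, 7 fell and 3 rose (median −0.39), from Hoxb13 (−1.87) to Hoxc13 (2.85). Of 17 measured imprinted genes, 7 fell and 0 rose (median −0.87), with Mirg (−2.13), Peg3 (−1.83) and the noncoding growth regulator H19 (from 474345 to 136107, −1.61) the lowest.

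Antioxidant and drug-export genes rose more often than they fell. Of 30 antioxidant and quinone-detoxifying genes, all measured, 10 rose and 1 fell (median 0.50). Gpx3, a secreted glutathione peroxidase, rose from 3850.2 to 28187 (3.06), Srxn1, which repairs peroxiredoxins, from 9924 to 32813 (1.91), and Gsta4 from 589 to 1662 (1.69). Sod3, the extracellular superoxide dismutase, fell from 4552 to 721 (−2.47). Of 13 measured ABC drug transporters, 5 rose and 0 fell. Abcg1 (from 713 to 5427, 3.12) moves sterols. Abcb4 (from 744 to 4681, 2.84) and Abcb1b (from 1284 to 6376) rose too, and Abcb1a, which like Abcb1b encodes a P-glycoprotein that pumps doxorubicin out of cells, was at 59.4 without and 961 with doxorubicin, above background only with it. Abcg2, the brightest, had a log2 ratio of −0.26. Of 16 measured heat shock chaperones, 3 rose and 0 fell, the highest ratio being that of Hspa1a (from 409 to 1512, 2.08). Among 24 glycolysis and pentose phosphate genes, 4 rose and 3 fell, with Ldhb (from 9658 to 65056, 2.94) highest and Aldoc (−2.70) lowest. Of 37 lysosome and autophagy genes, 6 rose and 3 fell, the highest ratio being that of the cathepsin gene Ctsf (from 1431 to 16967, 3.76).

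Genes of constitutive machinery mostly stayed within 2-fold. None of the 69 cytosolic ribosomal protein genes passed 2-fold (median −0.06, from −0.77 for Rpl21 to 0.37 for Rps15), and none of the 31 proteasome subunits (median 0.30, up to 0.90 for Psmc1). Of 37 oxidative phosphorylation subunits, 1 rose, Cox4i1 (1.03), and of 26 splicing factor and RNA polymerase II genes 1 fell, Srsf2 (−1.41, within 2-fold when its probes were averaged). Of 26 ribosome biogenesis genes, 2 rose and 0 fell (median −0.10), the highest being Polr1e (1.74). Among 16 reference genes, Hprt rose (from 16644 to 31940.2, 1.13), and the others stayed within 2-fold, the highest of them being B2m (0.75). Ppia, used by the study as a reference, was at 433682 without and 399385 with doxorubicin (0.07, below 0 under scaling to the array median). The medians of the oxidative phosphorylation, reference and lysosome lists, turned sign under scaling to the array median. Itch, a ubiquitin ligase gene that the study mentions, was at 3394 without and 1687 with doxorubicin (−0.82).

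The responses of the 2 genotypes share no array. Over all genes in p53-/- MEFs, 1568 of 16945 measured genes rose (9.25%) and 1168 fell (6.89%). Among genes with values on all 4 arrays, 1739 rose in the WT cells, of which 657 (37.8%) rose and 30 fell without p53. A further 1756 fell in the WT cells, of which 548 (31.2%) fell and 57 rose without p53. The sterol, stress response and matrix lists, with WT medians below 0, had medians of −1.66, −0.70 and −0.62 in p53-/- MEFs. The medians of the stress response and matrix lists were within 2-fold in both genotypes. The mitotic, kinetochore, replication and recombination lists, with WT medians below −1, had medians of 0.49, 0.62, 0.53 and 0.54 in p53-/- MEFs. With 1 array per condition, no difference between the genotypes was tested.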

How the data were processed

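Total RNA (200 ng) of each culture was labelled with Cy3 from oligo-dT primers and hybridised to 1 array per culture, all on 1 slide. The deposited intensities were made by the authors with Agilent Feature Extraction 10.7.3.1, which subtracts background and corrects spatial trends within an array and puts a surrogate value on dim spots. The deposited background and outlier flags are a score of 0 or 1 per spot. No spot was saturated. The deposited value table equalled the processed intensities at every spot.

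Outlier spots (162 without and 153 with doxorubicin in WT MEFs) were left out, repeat spots averaged, and log2 intensities centred on each array's 75th percentile. Of 39429 probes, 26157 were named by transcript accession, 3128 by symbol, 911 by synonym and 1 by description through the RefSeq table (GRCm38.p6), and 9232 kept the name of the array's design. Probe positions in the files are of mm9 and are not printed. Promoter windows come from RefSeq (GRCm38.p6). With 1 array per group no test was run, and the number of arrays limits the precision. The scripts were tested on simulated data. Python 3.11.15, numpy 2.4.6, pandas 2.3.3, matplotlib 3.10.9, R 4.3.3 and limma 3.58.1 were used.

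The comparison, the 61 lists (1414 genes) and the naming rule were chosen with earlier results of these data known. The named genes were the 15 highest and 15 lowest ratios with both signals above the negative controls, the 8 largest bounds in each direction, the 3 highest, 3 lowest and the brightest measured members (over all 4 arrays) of each list, genes the study names, sex-linked genes and cell type markers. Other named genes were chosen after their values were seen: Cdkn2c, Rbl1, H2ac11, H2ac22, H2ac18, H2bc4, H1f2, Ppm1d, Ebp, H2-D1, H2-K1, Fancd2, Palb2, Brip1, Areg, Jag2, Abcb1a, Irf7, Oas1g, the genes of the printed windows, and those of the added families in the closing section. Some genes that the rule names are not reported here. Alternatives were 3 other scalings, normexp background correction, 3 filters on dim probes, averaging over probes of a gene, use of the value table and thresholds of 1.5-fold and 3-fold.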

Additional observations from a re-analysis of the deposited data

Results flagged for a closer look

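A pattern is given here where the log2 ratio in WT MEFs and that in p53-/- MEFs had opposite signs and both were larger than 0.09, the spread of a ratio of single spots, which is not that of probes or cultures, with values as WT minus p53-/-. This held for 14 of 61 list medians and 8 of 34 genes compared. With 1 array per condition, none of these differences was tested.

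Most of these lists were of cell division. The difference of medians was −3.47 for mitotic genes, −2.68 for kinetochore genes, −2.07 for replication genes, −1.86 for homologous recombination and Fanconi genes, −1.15 for cohesin and condensin, −1.01 for deoxynucleotide synthesis, −0.83 for E2F, pocket protein and MYB-FOXM1 genes, −0.60 for damage checkpoint genes and −0.37 for cyclins and their kinases. Single genes of this kind were Exo1 (−5.47), Fignl1 (−5.01), Tk1 (−5.0) and Top2a (−4.87).

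Outside cell division, the difference was 0.81 for histone genes, 0.53 for pro-apoptotic BCL2 family genes and 0.47 for neural markers, and −0.92 for chemokines (whose WT median was only −0.09) and −0.53 for death receptors, ligands and caspases. Among the genes the study names, Dmpk differed by 2.91 (2.15 in WT and −0.76 in p53-/- MEFs), Bax by 1.44 (1.10 and −0.33), Trp63 by 0.99 (0.67 and −0.32) and Bbc3 by 0.66 (0.20 and −0.46). The WT medians of the pro-apoptotic list and of the neural markers, and the ratio of Bbc3, fell below 0 under scaling to the array median. Signs in p53-/- MEFs under other settings are not given here. Some medians there were small, such as 0.10 for damage checkpoint genes, 0.25 for cyclins and their kinases and 0.28 for cohesin and condensin.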

How the results depend on the processing

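The counts of 1930 rises and 1826 falls moved by over 1.5 times under another threshold, by construction, with 3609 rises and 3509 falls at 1.5-fold and 888 and 733 at 3-fold, and without a filter on dim probes, with 4899 and 2866 among 31694 genes. Scaling to the array median also moved the falls by over 1.5 times, to 2790, beside 1319 rises. The median of all genes went from 0.01 to −0.27 with that scaling and to −0.086 without the filter. The other settings gave 1574 to 1930 rises and 1477 to 2052 falls. Scaling to the array median moved all 61 list medians, but 0 of 61 when read against the median of all genes. On that reading, leaving out the filter on dim probes moved 49 of 61. Normexp correction moved 14 of 61 list medians and 168 of 382 named genes, and quantile normalization 8 and 104. The deposited value table moved none. No list median or named gene past 2-fold changed sign under the settings tried, but of 247 named genes past 2-fold, 39 came within it under at least 1 setting, 28 of them under scaling to the array median and 17 under normexp correction. No paired analysis was possible because each group has 1 array. For the same reason no replicate could be left out, and the slide could not be used as a block because it holds all 4 arrays. Signals near the negative controls (up to 108 without and 77.5 with doxorubicin) limit the ratios of dim genes.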

Other observations

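Families beyond the lists above, some of which share members with them, were looked at after the ratios of single genes had been seen, so the counts below are a description of a choice made on these values. Genes of epidermal differentiation and desmosomes, which build the barrier of the skin and are not typical of fibroblasts, stood out among the rises. Of 71 on the array, 33 were measured in WT MEFs, of which 21 rose and 2 fell (median 1.61), 13 were above background only with doxorubicin, 1 only without it and 24 on neither array. Perp, a desmosome gene, rose from 4714 to 87510.2 (4.40, and 3.73 in p53-/- MEFs), and Sbsn, a suprabasal keratinocyte gene, from 1789 to 42100.2 (4.75). Itgb4, the integrin subunit of hemidesmosomes, went from 235 to 5264 (4.68), and Evpl, an envelope plakin, from 298 to 4982 (4.25). Dsp, the desmosome plakin desmoplakin, reached 1868 with doxorubicin (4.31). Sfn, which encodes the 14-3-3 protein stratifin, had a log2 ratio of 3.03. In p53-/- MEFs the log2 ratio was 1.92 for Evpl, 0.60 for Sfn, 0.46 for Sbsn and 0.21 for Itgb4. Other members had higher ratios there than in WT MEFs. These included Aloxe3 (3.28 in WT and 3.67 in p53-/- MEFs), Sprr1a (2.77 and 3.44) and Lor (2.42 and 3.02). Grhl3, a factor of epidermal barrier genes, was at 26.3 without and 2788 with doxorubicin, above background only with it, while Grhl2 fell from 599 to 118 (−2.15). Krt10 (−0.08) stayed within 2-fold. Of 20 late cornified envelope genes on the array, 7 were measured, with log2 ratios from 0.68 to 6.83, and 6 of these rose, 7 were above background only with doxorubicin and 6 on neither array. In p53-/- MEFs, 14 of 30 measured genes of the epidermal list rose and 0 fell (median 0.78). Of the 6 measured epithelial markers given above, Krt19 (3.51), Krt14 (1.54) and Cldn3 (1.01) rose and 0 fell. Krt5 and Cdh1 passed the background call only with doxorubicin, and Epcam and Cldn4 on neither array. The part of other cells in these values was not tested.

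Of 28 genes of the tumour necrosis factor receptor superfamily, 23 were measured, 11 rose and 2 fell (median 0.63), with Tnfrsf18, Fas and Tnfrsf10b named above among the rises. Without p53, 5 of 19 measured rose and 0 fell. Of 18 interferon-inducible GTPases, which act against microbes inside cells, 10 were measured in WT MEFs, 5 rose and 0 fell (median 0.91). Gbp3 had a log2 ratio of 3.52 and Igtp of 2.60. All 11 measured in p53-/- MEFs rose (median 3.70).

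Grouping genes by the letters of their symbol gave 213 families with at least 8 measured members, 4423 genes in all. Those given here were picked by their counts, beside 11.0% of rises and 10.4% of falls among all measured genes. Other families changed in both directions, such as Tbx, where 4 of 10 rose and 2 fell. Of 15 Adamts genes, proteases that trim matrix proteins, 11 fell and 1 rose (median −1.36). Of 9 protocadherin beta genes (Pcdhb), neighbours in 1 gene cluster with similar sequences, 6 fell and 0 rose (median −1.10). Of 8 Haus genes, subunits of the augmin complex of the spindle, 4 fell and 0 rose (median −1.01), with a median of 0.70 in p53-/- MEFs. Families that leaned up included Serpina (protease inhibitors, 5 of 10 rose, 0 fell, median 0.97), Akr (aldo-keto reductases, which reduce carbonyls and quinones, 4 of 8, 0 fell, 0.89), Dusp (7 of 20, 0 fell, 0.67) and Fbxw (F-box subunits of ubiquitin ligases, 6 of 14, 0 fell, 0.46).

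By chromosome, the 683 measured genes of the X chromosome had the lowest median log2 ratio of those compared (−0.13), with 9.66% rises and 14.6% falls. Chromosome 17 had 13% rises and 8.57% falls among 875 genes.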
